A study of Arabidopsis thaliana with 9 samples.

Results

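The comparison described here sets heat stress (HS) against Control in seedlings of Arabidopsis thaliana accession Col-0, and asks at which transcripts the ends left by microRNA (miRNA)-guided cleavage were gained or lost within 1 h at 37°C. Its members are the 3 HS and the 3 Control libraries, 6 of the 9 libraries of the series, chosen by their titles and used with every line of their lists. All seedlings were 7 days old and wild type, grown on sucrose-containing agar medium in long days, and RNA was taken from whole seedlings. Control seedlings were not heated, and HS seedlings were harvested after the hour at 37°C. The 3 Recovery libraries (1 h at 37°C, then 2 h at 22°C) entered the model that estimated the spread between replicates. They also counted toward which sites were tested, and are otherwise given only as a reference. The series describes the libraries of a group as biological replicates. Of the tissue markers, 10 of 58 photosynthesis genes were listed and 0 of 13 root marker genes were. A gene is listed only where an end falls at a site paired with a miRNA, so these counts do not measure tissue make-up.

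In plants, a miRNA loaded into an ARGONAUTE protein guides the cutting of a messenger that pairs with it along nearly its whole length, between the target bases opposite miRNA bases 10 and 11. The 3′ fragment keeps an uncapped 5′ end at the cut, which nanoPARE (nano-parallel analysis of RNA ends) can record, but the same method also records ends from other RNA decay. Many conserved plant miRNAs target transcription factors of development, such as ARFs (auxin response factors) and HAMs, the HAIRY MERISTEM factors. Heat at the same time switches on the genes of heat shock proteins (HSPs), chaperones that hold or refold damaged proteins.

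The pairs at which HS and Control differed are shown so that their pairing can be compared. All sequences are from RefSeq, assembly TAIR10.1, written 5′ to 3′ as DNA. In a miRNA the capitals mark the seed, bases 2 to 8. In a target site they mark bases that form a Watson-Crick pair with the miRNA, and lower case marks a mismatch or a G:U pair. The first set holds the miRNAs and sites whose signal was lower in HS by the tests below. With them are the HAM3, ARF16 and SPL2 sites and miR156j, which no HS library listed but which did not pass those tests.
miR160a-5p: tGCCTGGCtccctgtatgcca
ARF10 site: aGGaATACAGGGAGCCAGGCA
ARF17 site: TGGCATgCAGGGAGCCAGGCA
ARF16 site: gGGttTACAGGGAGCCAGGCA
miR171a-3p: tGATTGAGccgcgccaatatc
HAM1, HAM2 and HAM3 site: GATATTGGCGCGGCTCAATCA
miR167a-5p: tGAAGCTGccagcatgatcta
ARF8 site: TAGATCAgGCTGGCAGCTTgt
miR156j: tGACAGAAgagagagagcac
SPL2 site: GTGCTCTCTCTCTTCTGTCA

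The HAM1, HAM2, HAM3 and SPL2 sites had 0 mismatches, the ARF17 site 0 mismatches and 1 G:U pair, the ARF10 and ARF16 sites 2 mismatches and the ARF8 site 3. The ARF10 site lies on the plus strand at chr2:12115741-12115761, in the coding part of exon 2 of 3. ARF17 has its site at chr1:29274189-29274209 (plus strand, coding, exon 2 of 2) and ARF16 at chr4:14704141-14704161 (minus strand, coding, exon 3 of 4). The 3 HAM sites, each in the coding part of a single-exon gene on the minus strand, are at chr2:18619128-18619148 for HAM1, chr3:22411544-22411564 for HAM2 and chr4:58411-58431 for HAM3. The ARF8 site is at chr5:14633841-14633861 (plus strand, coding, exon 13 of 14), and the SPL2 site at chr5:17360758-17360777 (minus strand, coding, exon 5 of 5).

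The second set holds 3 of the miRNAs whose summed signal was higher in HS, and the 3 sites with higher signal for which pairing could be placed. The list entry of HSP17.6A-CI with miR829-5p has 3 mismatches and 2 G:U pairs (chr1:22031835-22031855, plus strand, coding, exon 1 of 1). That of AT4G14270 with miR831-3p has 3 mismatches and 1 G:U pair (chr4:8218715-8218736, plus strand, coding, exon 1 of 2). That of HSP90.1 with miR414, the rising site with the lowest Allen score, has 1 mismatch (chr5:21353701-21353721, plus strand, coding, exon 4 of 4). The HSP90.1 window has an offset of −157 bases from the deposited position.
miR829-5p: aCTTTGAAgctttgatttgaa
HSP17.6A-CI site: aTCAAgTtAAAGCTTCAAtGg
miR831-3p: tGATCTCTtcgtactcttcttg
AT4G14270 site: gAAGAAGAGTtCGAgGAGATgA
miR414: tCATCTTCatcatcatcgtca
HSP90.1 site: TGACGATGAgGATGAAGATGA
miR3440b-5p: tTTTCTTGgcccatccacttc
miR390a-3p: cGCTATCCatcctgagtttca
miR5013: tTTGTGACatctaggtgcttt

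The 8 miRNAs that differed between HS and Control have 8 different seeds. An ungapped window at the deposited pairing score was found for all 5 sites called lower, for 3 of the 11 called higher, and for 396 of the 1286 sites listed in Control or HS (30.8%). Sites of the HSP17.8, HSP17.6B, HSP17.4 and HSP23.6-MITO transcripts were not placed and are named only.

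Signal is given as the RPM (reads scaled to library size) that the authors assigned to a slice site, and a site that a library does not list is entered as 0. From the commonest value of each list, 1 read was worth 0.251 to 0.429 RPM, totals of 2331769 to 3985906 reads were implied for the 6 libraries, and between 47.1% and 59.0% of the listed sites of a library held about 1 read. The RPM summed over a list ran from 298 to 333 in Control, but was 307 in HS replicate 1, 170 in HS replicate 2 and 345 in HS replicate 3. HS replicate 2 also held 4.27 RPM at mitochondrial sites, against 23.2 to 49.7 RPM in the other 5 Control and HS libraries. Both values lay within the range of the Recovery libraries, which had 125 to 181 RPM summed and 3.78 to 5.86 RPM at mitochondrial sites. The cause was not tested, and results are given without HS replicate 2 where it decides them.

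After an hour of heat the libraries listed fewer well-paired and fewer supported sites than any Control library, at the smallest p the design allows, while the total number of listed sites did not differ beyond the spread between replicates. Control libraries listed 319, 410 and 412 sites (380 ± 53.1, SD, n = 3) and HS libraries 295, 277 and 382 (318 ± 56.2, SD, n = 3; two-sided exact permutation p = 0.2). Sites for which the authors' pipeline gave an adjusted p under 0.05, called supported here, numbered 16, 21 and 26 in Control (21 ± 5, SD) and 8, 9 and 7 in HS (8 ± 1, SD). The groups did not overlap, and the exact permutation p was 0.1, the smallest that 3 against 3 libraries can give. Sites with an Allen score of 4 or lower, a mismatch penalty in which 0 is perfect pairing and 6 the highest value listed, numbered 73, 82 and 91 in Control and 55, 66 and 53 in HS (82 ± 9 against 58 ± 7, SD, n = 3; exact permutation p = 0.1, no overlap). Their share of the listed sites was 21.7% ± 1.49 and 18.8% ± 4.98 (SD, n = 3; exact permutation p = 0.5), and here the groups overlapped.

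**Figure D1:**
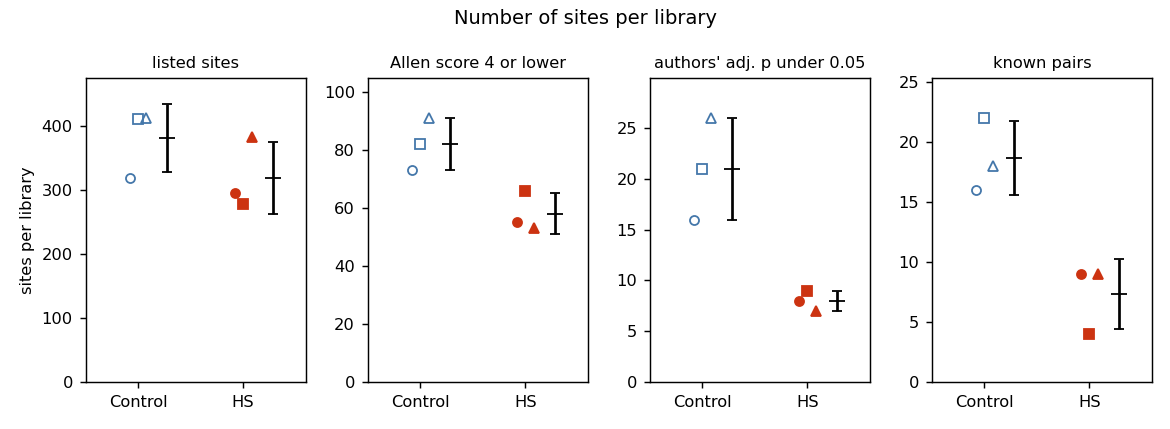
Number of sites per library (vertical axes, each from 0) in Control and HS, for all listed sites, sites with an Allen score of 4 or lower, sites with the authors' adjusted p under 0.05, and sites of known miRNA-target pairs. Symbols are libraries and bars the mean ± SD of 3. Groups overlap for listed sites only, and supported sites lie at 16 to 26 in Control and 7 to 9 in HS.

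Of 50 supported sites, 31 were supported in Control only, 12 in HS only and 7 in both. At least 2 Control libraries supported 15 sites, of which 12 were known miRNA-target pairs and 9 were listed in no HS library at all. For comparison, 21 of the 50 supported sites were known pairs. Of the 221 sites that at least 2 Control libraries listed, 79 (35.7%) were listed in no HS library. At least 2 HS libraries supported 4 sites, and 3 of these were shared with Control. These 3 were ARF17, AGO2 (ARGONAUTE2, targeted by miR403-3p) and AT2G24550 with miR414. The AT2G24550 site was listed at 1.29, 0.698 and 0.631 RPM in Control and at 0, 1.25 and 1.304 RPM in HS, ranges that overlapped. The fourth, DEG14 with miR5657, was listed at 0.316 RPM in 1 Control library and at 0.251 and 0.652 RPM in 2 HS libraries.

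Among single sites, the signal of 5 known miRNA targets fell and that of 11 sites in 10 genes rose, all but 1 of the latter genes encoding an HSP or its co-chaperone Fes1A. The test, limma on log2(RPM + 1) with Benjamini-Hochberg adjustment over the 322 sites that 3 or more of the 9 libraries listed, called 16 (4.97%), 5 lower (1.55%) and 11 higher (3.42%). With libraries rescaled to equal summed RPM it called 9, of which 1 was lower and 8 higher. The median log2 change of all tested sites was −0.13, and changes are to be read against it. At 33 sites (10.2%) the Control libraries all exceeded the HS libraries, and at 20 (6.21%) the reverse held.

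ARF10, an auxin response factor that acts as a transcriptional repressor, had 5.58, 4.53 and 4.104 RPM in the Control libraries and was listed in none of the HS libraries. The groups were wide apart, with a log2 change of −2.51 ± 0.353 (SE; limma adjusted p = 6.98e-05), and the call held in all 9 fits that left out 1 library. HAM1, a GRAS-family factor of the shoot meristem, had 3.43, 2.09 and 2.53 RPM in Control and was likewise absent from the HS lists. Its log2 change was −1.86 ± 0.408 (SE; limma adjusted p = 0.00793), which held without any 1 library but missed the threshold when the libraries were rescaled to equal summed RPM (limma adjusted p = 0.0526). Each of these log2 changes is against values of 0, so it depends on the added 1 RPM and sets no bound.

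The other called sites rested on smaller or less even values. ARF17, another repressor-type factor cut through miR160a-5p, had 1.72, 6.63 and 4.42 RPM in Control and 1.02, 0.251 and 0.652 RPM in HS. Its Control replicate 1 was low and its HS replicate 1 high, and the groups came near each other without overlapping. The log2 change was −1.58 ± 0.458 (SE; limma adjusted p = 0.0467). ARF8, an activator of auxin-dependent genes, had 0.858, 3.84 and 1.26 RPM in Control, and 0.326 RPM in HS replicate 3 as the single HS value. HAM2 had 2.14, 1.05 and 1.26 RPM in Control, and again only HS replicate 3 listed it, at 0.326 RPM, the value of 1 read in that library. The log2 changes were −1.31 ± 0.365 for ARF8 and −1.15 ± 0.322 for HAM2 (SE; limma adjusted p = 0.0427 for both). Leaving out 1 library cost ARF17 its call in 7 of 9 fits, ARF8 in 6 and HAM2 in 8, with limma adjusted p up to 0.163, 0.138 and 0.133. The exceptions were the fits without Control replicate 1 or Recovery replicate 2 for ARF17, these and that without Control replicate 3 for ARF8, and that without Control replicate 3 for HAM2.

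The Allen scores of the 5 falling sites, which the comparison did not use, ran from 0 to 4 with a median of 0.5, against 5.5 over all 1286 sites listed in Control or HS. The following values contain or depend on the slice-site RPM that was tested, and are given as a description. In each of the 20 lines that listed the 5 sites the slice site stood above its local background, with a median fold over background of 2.23 (the deposited fold is site RPM plus 1 over background RPM plus 1), and every one of the 5 was supported in at least 2 Control libraries. Over all lines of the 6 libraries, 441 of 2095 (21.1%) stood above background. Since RPM of ends was the only quantity in the lists, a lower rate of cutting, fewer target transcripts and fewer cells expressing the target cannot be told apart.

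Of the rising sites, that of HSP17.8, a cytosolic small HSP, had 32.7, 12.5 and 32.9 RPM in HS and was listed in Control replicate 2 only, at 0.349 RPM or 1 read. The log2 change was 4.50 ± 0.539 (SE; limma adjusted p = 1.14e-05). HSP17.6B had 4.76, 12.3 and 13.4 RPM in HS, and HSP17.6A-CI 14.6, 2.26 and 12.4 RPM, and no Control library listed either. These small HSPs of the cytosol had log2 changes of 3.37 ± 0.514 and 3.14 ± 0.484 (SE; limma adjusted p = 0.000145 for both). HS replicate 2 was the lowest library for HSP17.8 and HSP17.6A-CI but not for HSP17.6B, where HS replicate 1 was.

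Fes1A, which protects HSP70 in the heated cytosol, had 3.06, 9.28 and 9.45 RPM in HS and 0 in Control (log2 change 2.92 ± 0.486, SE; limma adjusted p = 0.00033). AT4G14270, the 1 called gene outside the heat lists, had 2.38, 1.25 and 3.91 RPM in HS and 0.316 RPM in Control replicate 3 alone (log2 change 1.61 ± 0.355, SE; limma adjusted p = 0.00793). HSP17.8, HSP17.6B, HSP17.6A-CI, Fes1A and AT4G14270 were called in all 9 fits without 1 library.

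At 6 further sites, none of them listed in Control, the HS libraries were uneven. HSP70B, a heat-inducible cytosolic HSP70, had 1.36, 1.00 and 10.4 RPM at its called site, so that HS replicate 3 stood far above the others (log2 change 1.92, limma adjusted p = 0.0202). HSP17.4 had 2.72, 0.753 and 6.19 RPM at its miR173-3p site (1.85, limma adjusted p = 0.0155), and HSP23.6-MITO, a mitochondrial small HSP, 0.681, 2.76 and 2.28 RPM (1.46, limma adjusted p = 0.0168). HSP90.1, the heat-inducible cytosolic HSP90, had 1.70, 1.00 and 2.28 RPM (1.38, limma adjusted p = 0.0168). HSP70T-2, a truncated HSP70, had 1.70, 0.502 and 2.28 RPM at position 1301 of its transcript and 1.02, 0.502 and 3.59 RPM at position 1614 (1.24 and 1.27, limma adjusted p = 0.0467 for both). The HSP70B call was lost without Control replicate 2, HS replicate 3 or Recovery replicate 3, those of HSP17.4 and HSP90.1 without Control replicate 2 or HS replicate 3, and that of HSP23.6-MITO without Control replicate 2, HS replicate 2 or HS replicate 3. Their limma adjusted p then reached at most 0.0873, 0.0727, 0.0727 and 0.0775. The HSP70T-2 sites passed in 2 of 9 (without HS replicate 2 or Recovery replicate 2) and 1 of 6 such fits, with limma adjusted p up to 0.164 and 0.12. The site at position 1614 was listed in the 3 HS libraries only and entered the test through them. Fits without any 1 HS library therefore did not hold it.

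**Figure D2:**
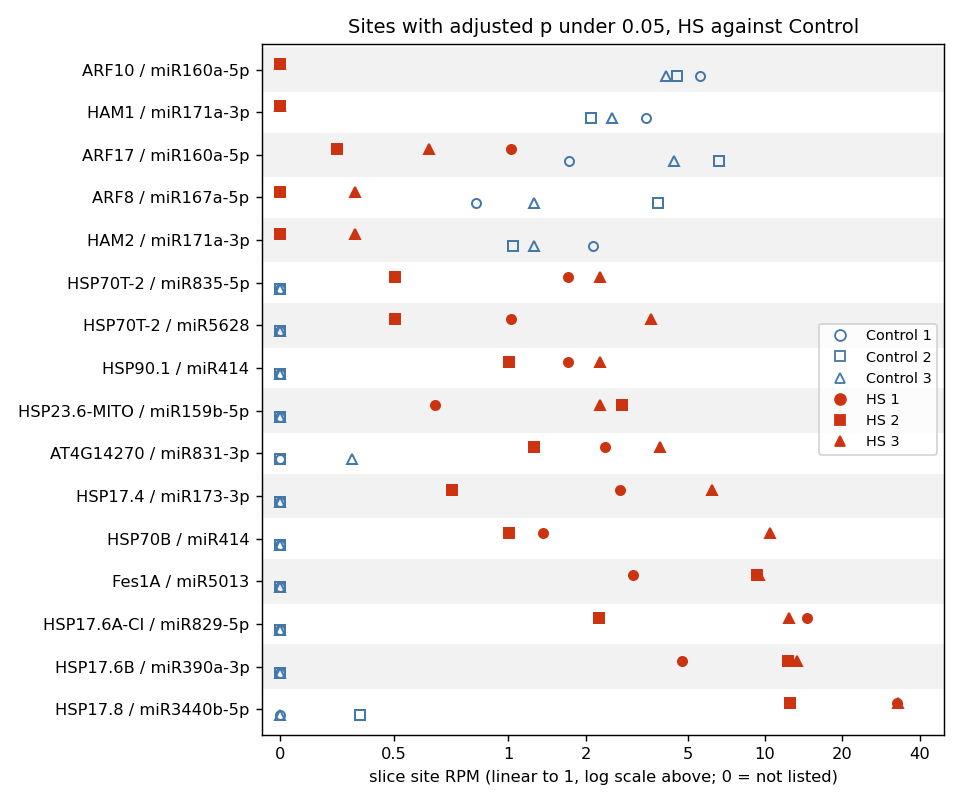
Slice-site RPM of the 16 called sites in the 3 Control (open) and 3 HS (filled) libraries, linear up to 1 RPM and logarithmic above, with 0 for a library that does not list the site. The groups are apart at every one of these sites. The uppermost 5 are higher in Control, and HSP17.8 reaches 32.9 RPM in HS.

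Rising and falling sites differed in their median pairing and local background, with ranges that overlapped. The 11 rising sites had Allen scores of 2 to 6 with a median of 5, and 1 of them, HSP90.1 with a score of 2, had a score of 4 or lower and so a better one than ARF8. Their slice sites stood above local background in 2 of 35 lines, where the median background was 16.6 RPM and the highest 104 RPM, against 0 RPM as the median at the falling sites. At HSP17.8 the background was 69.1 to 104 RPM in the HS libraries, so that its 12.5 to 32.9 RPM amounted to a deposited fold of 0.129 to 0.48. HSP17.6A-CI stood in a background of 38.1 to 53.1 RPM and HSP17.4 in one of 36.1 to 84.1 RPM. HSP90.1 was the only rising site with support from the authors' test, in 1 HS library. At the HSP70B site the background was 0.753 to 7.17 RPM and the deposited fold 0.698 to 1.399. Transcript levels were not in these lists, and their part in the rise was not tested.

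**Figure D3:**
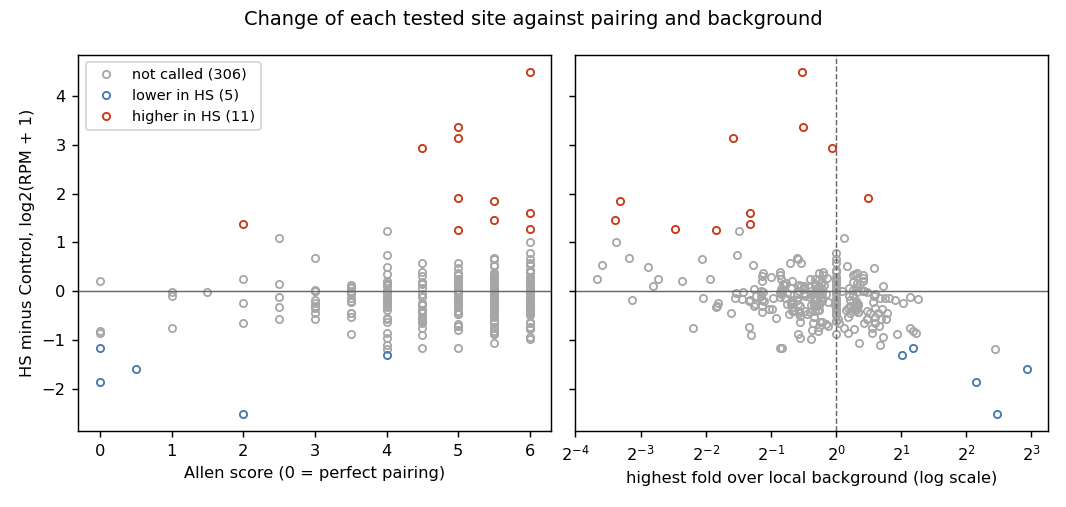
Change of each of the 322 tested sites (vertical axes, HS minus Control in log2(RPM + 1)) against its Allen score (left) and against its highest deposited fold over local background in Control or HS (right, log scale, dashed line at 1, for the sites listed in either group). The 5 sites called lower have scores of 0 to 4 and lie right of the line, while 10 of the 11 called higher lie left of it.

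Summed over the sites of a gene, 15 of 333 loci were called (4.5%), 5 lower (1.5%) and 10 higher (3%), and these were the genes already named. After rescaling 2 loci were called lower and 10 higher. Of the called genes, 4 had more than 1 site. HSP70B had 3 sites in HS that added up to 3.74, 1.00 and 14.99 RPM, a log2 change of 2.42 ± 0.483 (SE; limma adjusted p = 0.000619). HSP70T-2 summed to 2.72, 1.00 and 5.87 RPM (1.89 ± 0.408, SE; limma adjusted p = 0.0015), and HSP17.4 to 3.74, 1.76 and 7.17 RPM (2.25 ± 0.469, SE; limma adjusted p = 0.00104). These 3 loci were called in all 9 fits without 1 library. AT4G14270 went the other way: another site in Control brought its log2 change to 1.44 ± 0.393 (SE; limma adjusted p = 0.0199), and the call was lost without Control replicate 2 or HS replicate 3 (limma adjusted p at most 0.114) and in 3 of 6 other settings (at most 0.0945). The median log2 change over tested loci was −0.17, and the groups were apart with Control higher at 31 loci (9.31%) and with HS higher at 17 (5.11%).

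Among the miRNAs, the summed signal of 3 conserved guides fell and that of 5 others rose, 8 of 189 tested (4.23%), 3 lower (1.59%) and 5 higher (2.65%). The median log2 change over tested miRNAs was −0.14. miR160a-5p, the guide of ARF10, ARF16 and ARF17, had 7.72, 11.9 and 8.84 RPM over its sites in Control and 1.02, 0.251 and 0.652 RPM in HS (log2 change −2.68 ± 0.528, SE; limma adjusted p = 2.81e-05). Of its 3 sites in Control 1 was listed in HS. miR171a-3p, the guide of the HAM factors, had 6.004, 3.84 and 5.05 RPM in Control and 0, 0 and 0.326 RPM in HS (−2.42 ± 0.489, SE; limma adjusted p = 3.84e-05), again from 3 sites and 1. miR167a-5p, which guides the cutting of ARF6 and ARF8, had 5.15, 6.63 and 4.104 RPM in Control and 0.681, 0.251 and 1.96 RPM in HS (−1.76 ± 0.501, SE; limma adjusted p = 0.0129). Here 7 sites were listed in Control and 4 in HS, and the call was lost without Control replicate 2 or HS replicate 1 (limma adjusted p at most 0.0656). Of its Control mean of 5.29 RPM the ARF6 site gave 0.955 RPM. Sites other than those of ARF6 and ARF8 gave part of the sum in both groups. For all 3 miRNAs the Control values all exceeded those of HS, as they did for 21 of the 189 miRNAs (11.1%).

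The rise of the other 5 miRNAs came almost wholly from 1 heat shock transcript each. At the small HSP sites, those of HSP17.8, HSP17.6B and HSP17.4 among them, 0 of 21 lines stood above local background. None of these sites was supported. miR3440b-5p had 2.14, 1.395 and 1.58 RPM in Control and 33.0, 13.8 and 32.9 RPM in HS (log2 change 3.26 ± 0.554, SE; limma adjusted p = 9.64e-07), and of its HS mean of 26.6 RPM the HSP17.8 site gave 26.0 RPM. miR390a-3p, the strand opposite the conserved miR390 guide, rose from 1.72, 1.05 and 0.947 RPM to 5.45, 13.8 and 15.6 RPM (2.40 ± 0.556, SE; limma adjusted p = 0.000665), mostly at HSP17.6B. miR5013 had 0.631 RPM in Control replicate 3 only and 3.06, 9.78 and 11.1 RPM in HS, mostly at Fes1A (2.78 ± 0.528, SE; limma adjusted p = 1.58e-05). The signal of miR173-3p lay at HSP17.4 and that of miR5628 at HSP70T-2 (log2 changes of 1.74 and 1.27, limma adjusted p = 0.00536 and 0.0158). The call of miR173-3p was lost without Control replicate 2 or HS replicate 3 (limma adjusted p at most 0.118) and that of miR5628 without any 1 Control library or HS replicate 3 (at most 0.111). For these 5 miRNAs every HS library lay above every Control library, as for 12 of the 189 (6.35%). miR414, which had the most sites of any miRNA described here with 139 in Control and 127 in HS, summed to 61.1, 47.8 and 52.0 RPM and to 33.9, 38.5 and 45.1 RPM, and was not called (limma adjusted p = 0.494).

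**Figure D4:**
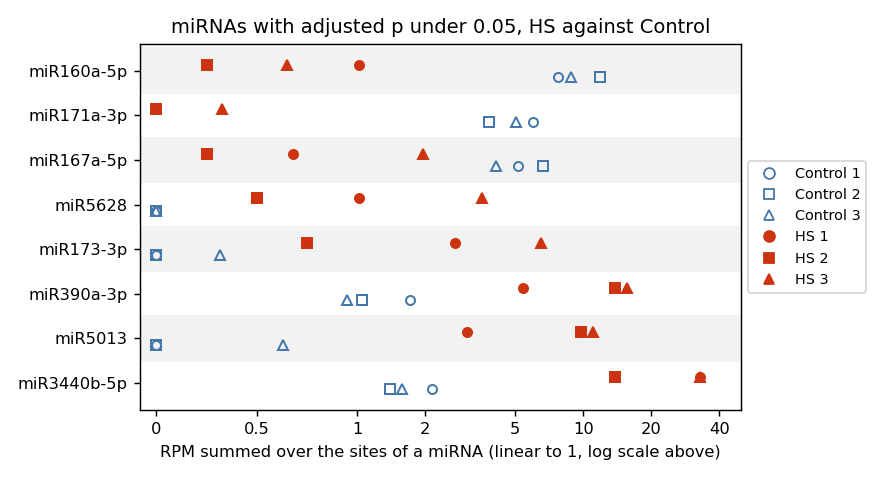
RPM summed over the sites of each of the 8 called miRNAs in the 3 Control (open) and 3 HS (filled) libraries, linear up to 1 RPM and logarithmic above. miR160a-5p, miR171a-3p and miR167a-5p, the uppermost rows, are higher in every Control library, and the other 5 in every HS library.

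Presence and absence were counted as well. A site was counted as gained when at least 2 of the 3 HS libraries and no Control library listed it, and as lost in the reverse case. Of 1286 sites listed in Control or HS, 857 (66.6%) were listed in 1 library and 23 in all 6. Sites gained numbered 57 (4.43%), sites lost 79 (6.14%) and sites in at least 2 libraries of both groups 76 (5.91%). The shared sites made up 34.4% of the 221 sites of Control and 45.8% of the 166 of HS. Libraries of 1 group had 79 to 140 sites in common and libraries of different groups 72 to 119, so that the ranges overlapped.

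Of the 79 lost sites 23 had an Allen score of 4 or lower, 9 were supported in Control, 7 were known pairs and 0 lay in heat genes. Of the 57 gained sites 6 had such a score, 1 was supported, 1 was a known pair and 15 lay in heat genes. Over all 1286 sites 236 had a score of 4 or lower (18.4%), 50 were supported (3.89%), 36 were known pairs and 27 lay in heat genes. Most of the 1286 were listed in 1 library (66.6%), unlike gained or lost sites. Of the 76 sites in at least 2 libraries of both groups, 13 had such a score (17.1%) and 6 were supported (7.89%). Among these 76, 3 were known pairs and 0 lay in heat genes. The single known pair gained was SERRATE (SE), which aids the processing of miRNA precursors, with miR863-3p, at 0.34 and 0.251 RPM in 2 HS libraries. No site of AGO1 or DCL1, the main ARGONAUTE and the Dicer of the pathway, was listed.

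Among the sites lost, 15 were listed in all 3 Control libraries and in no HS library, and 6 of them were known and supported pairs. These were ARF10, HAM1, HAM3, ARF16, NAC1 and SPL2. HAM3 had 0.429, 0.698 and 1.26 RPM in Control, and ARF16, the close relative of ARF10, 0.429, 0.698 and 0.316 RPM. SPL2, a factor of the switch to adult growth cut through miR156, had 0.858, 1.395 and 0.316 RPM, and NAC1, a factor of lateral root growth cut through miR164, 0.429, 1.05 and 0.316 RPM. Apart from ARF10 and HAM1, all of these went down to 1 read in at least 1 Control library, and none passed the site test (limma adjusted p = 0.236 for HAM3, 0.306 for ARF16, 0.177 for SPL2 and 0.305 for NAC1). The other 9 were supported in no library. By mean RPM they were led by AT3G52230 with miR414 (1.72, 1.05 and 0.316 RPM) and AT4G02725 with miR4240 (1.72, 0.349 and 0.631 RPM), followed by AT4G09830, the histone gene HTA6, the aquaporin gene PIP2A and the synaptotagmin gene SYTA. Outside this set, 3 of the lost sites were supported in 2 Control libraries each, namely DML3, a DNA demethylase gene, with miR402, AT3G23160 with miR414, and AT5G43740, a disease-resistance gene, with miR472-3p.

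Of the 15 sites listed in all 3 HS libraries and in no Control library, 10 lay in heat genes. Besides the 9 called ones this was another HSP17.4 site, named for miR5015, at 1.02, 1.00 and 0.978 RPM, which did not pass the test (limma adjusted p = 0.11). FBS1, an F-box gene induced by stress, had 0.34, 0.753 and 0.978 RPM with miR414 (limma adjusted p = 0.236). VMA10, a subunit gene of the vacuolar proton pump, had 1.02, 0.502 and 0.326 RPM (limma adjusted p = 0.135), AT1G76880 0.875, 0.251 and 0.652 RPM, and CRL1 0.34, 0.753 and 0.326 RPM. None of these 4 was supported in a library.

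At the level of loci, 52 were gained (4.41% of 1180), 83 lost (7.03%) and 81 shared (6.86%). The known target locus SPL3 was among those gained, at 1.02 and 0.251 RPM in HS replicates 1 and 2 over 2 sites. It was not called (limma adjusted p = 0.341). As sites, 1 known pair was gained and 7 were lost. Of 261 miRNAs listed in Control or HS, 100 (38.3%) were listed in at least 2 libraries of both groups, which was 71.9% of the 139 of Control and 77.5% of the 129 of HS, while 10 were gained (3.83%) and 11 lost (4.21%). The miRNAs lost were miR156g, miR156j, miR157a-3p, miR159b-3p, miR164a, miR402, miR418, miR5652, miR5654-5p, miR8175 and miR870-3p. Of these, miR156j, miR164a, miR418 and miR870-3p were listed in all 3 Control libraries, at summed signals between 0.316 and 1.395 RPM. miR159b-3p, a guide of MYB factors, had 1.74 and 0.947 RPM in 2 of them. The miRNAs gained were miR165a-5p, miR1887, miR2939, miR5628, miR5648-3p, miR5663-3p, miR5997, miR826a, miR863-3p and miR870-5p, with miR5628 alone in all 3 HS libraries. The highest of the others was miR165a-5p, at 2.04 and 1.25 RPM in HS replicates 1 and 2.

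Taken by gene list, the known miRNA-target pairs held less signal in HS and the chaperones more. Of 137 known target loci 36 were listed with their own miRNA family, and their signal summed to 22.3, 34.2 and 26.0 RPM in Control (27.5 ± 6.07, SD) and to 6.13, 1.00 and 3.59 RPM in HS (3.57 ± 2.56, SD; n = 3; exact permutation p = 0.1). The groups were far apart, with or without HS replicate 2. Over all 36 listed pairs the mean RPM was lower in HS at 30 and higher at 6, a split not set against one over all listed sites. Of the 12 sites supported in HS only, 2 were known pairs. Of the 15 that were listed often enough to be tested 5 fell and 0 rose, all 15 had a lower mean log2 value, as did 65.2% of all tested sites, and their median log2 change was −0.85 against −0.13 overall. The Control values all exceeded those of HS at 11 of the 15, and at 10.2% of the tested sites as a whole. At each of those 11 all 3 Control libraries listed the site, which alone meets the filter of 3 libraries. The counts and the median of the 15 thus depend in part on that filter.

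Below the threshold, GRF3, a growth-regulating factor paired with miR396a-5p, had 0.429, 3.14 and 4.42 RPM in Control and 0.681, 0.251 and 0.326 RPM in HS, where the low Control replicate 1 overlapped with HS (limma adjusted p = 0.15). AFB2, an auxin receptor paired with miR393a-5p, had 1.29, 1.74 and 0.631 RPM in Control and 0.0543 RPM in HS replicate 1 alone (limma adjusted p = 0.0673). ARF6 had 1.29, 0 and 1.58 RPM in Control and 0.326 RPM in 1 HS library (limma adjusted p = 0.364). AGO2, which acts in antiviral silencing, had 1.72, 1.74 and 1.89 RPM in Control and 1.70, 0 and 0.652 RPM in HS, so that HS replicate 1 nearly equalled Control (limma adjusted p = 0.365).

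Small HSPs, with 7 sites in 6 of 16 loci, summed to 0, 0.349 and 0 RPM in Control and to 56.8, 31.9 and 68.1 RPM in HS (52.3 ± 18.6, SD). All 7 were tested, 5 rose and 0 fell, and none was supported in any library. Over all 322 tested sites 11 were called higher (3.42%) and 5 lower (1.55%). The HSP70, HSP90 and HSP100 genes, with 14 sites in 9 of 31 loci, summed to 0.429, 1.05 and 0 RPM in Control and 9.87, 4.27 and 30.3 RPM in HS, where HS replicate 3 alone was above 10 RPM. Of their 7 tested sites 4 rose and 0 fell. Among these, the HSP70T-2 site at position 1614 met the filter of 3 libraries through the HS libraries alone. MTHSC70-2, a mitochondrial HSP70, had 0.681, 1.00 and 4.24 RPM in HS and 0.349 RPM in Control replicate 2 (limma adjusted p = 0.091), next to a mean local background of 327 RPM in HS. The co-chaperones summed to 0.429, 0 and 0 RPM in Control and 4.76, 11.3 and 11.4 RPM in HS, and 1 of their 3 tested sites, Fes1A, rose. The DnaJ-type co-chaperone J3 had 1.02, 2.01 and 1.304 RPM in HS and 0.429 RPM in Control replicate 1 (limma adjusted p = 0.11). For each of these 3 lists every HS library lay above every Control library (exact permutation p = 0.1). With Control near 0, their tested sites met the filter of 3 libraries mostly through HS or Recovery libraries. The counts of sites that rose or fell thus depend in part on that filter. These sums, like that of the known pairs, contain the sites called above and repeat their values. HSP17.8 alone gave 26.0 RPM of the HS mean of the small HSPs. The lists were also chosen with earlier results of these data known. Of 26 heat regulators 2 were listed, HSFA7A and HSFB1, in HS only and at 0.364 ± 0.377 RPM together (SD, n = 3).

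**Figure D5:**
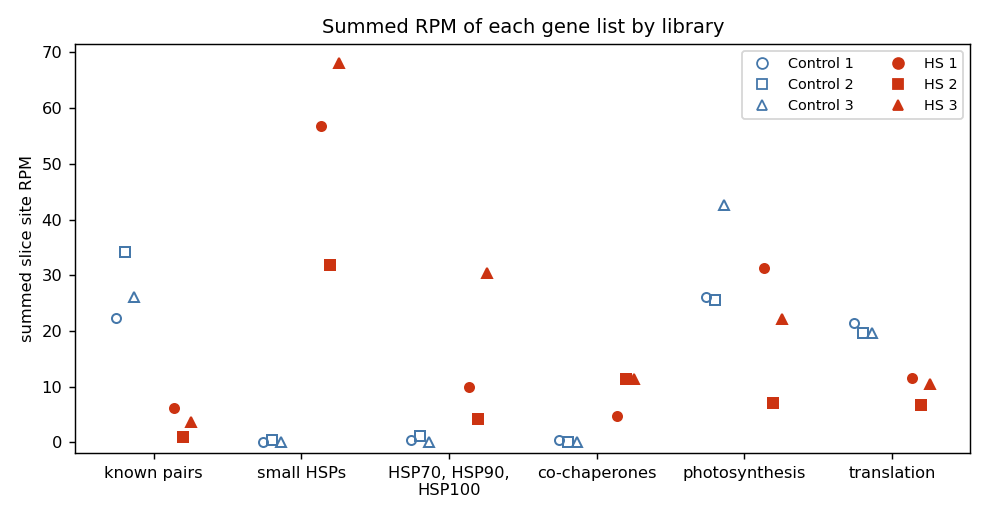
Slice-site RPM summed over the listed sites of 6 gene lists (horizontal axis) in the 3 Control (open) and 3 HS (filled) libraries. Control is higher for known pairs and translation and HS for the 3 chaperone lists, with no overlap, while photosynthesis genes overlap (25.5 to 42.6 RPM in Control and 7.02 to 31.3 RPM in HS).

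Genes of translation, a list of ribosomal proteins, elongation factors and related genes, summed to 21.5, 19.5 and 19.6 RPM in Control and to 11.5, 6.77 and 10.4 RPM in HS (20.2 ± 1.095 against 9.57 ± 2.48, SD, n = 3; exact permutation p = 0.1). The groups did not overlap, yet 0 of its 12 tested sites were called by limma (1 had an unadjusted p under 0.05). Of the 12, 10 had a lower and 2 a higher mean log2 value, and the median log2 change was −0.37. Over all tested sites 65.2% had a lower mean log2 value, and the median was −0.13. TCTP, a growth regulator, gave the most signal, at 7.72, 9.42 and 9.47 RPM in Control and 4.08, 3.01 and 6.19 RPM in HS (limma adjusted p = 0.45). The ribosomal protein gene AT3G56020 had 1.38, 3.02 and 1.52 RPM in Control and 0.582, 0.421 and 0.433 RPM in HS (limma adjusted p = 0.133). Sites of the elongation factor genes AT1G07920, AT1G07930 and AT1G07940 are named for the same miRNAs, and near-identical copies may share reads.

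Photosynthesis genes summed to 26.2, 25.5 and 42.6 RPM in Control and 31.3, 7.02 and 22.2 RPM in HS, a difference within the spread between libraries (exact permutation p = 0.4). LHCB1.3, an antenna protein gene with the highest mean of the list in Control, had 9.43, 12.2 and 18.0 RPM in Control and 8.17, 3.51 and 4.56 RPM in HS, apart but not called (limma adjusted p = 0.347). LHCB4.1, with 10.3, 5.23 and 12.3 RPM against 10.2, 1.00 and 8.15 RPM, overlapped and had the highest mean in HS. Of the 12 tested sites of the list limma called 0 (1 had an unadjusted p under 0.05), with 6 lower and 6 higher mean log2 values and a median log2 change of 0.02. In both lists the authors' adjusted p was under 0.05 at no site.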

How the data were processed

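nanoPARE libraries were made from total RNA of whole Col-0 seedlings, and 1 list of candidate slice sites per library was used, with no pooling of replicates. Reads were processed by the authors with the nanoPARE pipeline against genome build TAIR10 per the labels, in a version not given in the sources used here. Per slice site, the authors deposited a signal in RPM. The deposited ratio, called fold, is site RPM plus 1 over local background RPM plus 1, and the background was solved from it. The Allen score was deposited as a pairing penalty, and the deposited p-value is the adjusted p that the authors' pipeline gave each site in each library. Lists were not filtered on it.

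Sites, loci (sites of a gene summed) and miRNAs (sites of a guide summed) listed in at least 3 of 9 libraries were fitted with limma 3.58.1 in R 4.3.3 (lmFit, eBayes with trend) on log2(RPM + 1), all 9 libraries in 1 fit, with Benjamini-Hochberg adjustment and a threshold of 0.05. This scale understates changes of low sites. Between 89.2% and 93.5% of values were whole multiples of 1 read within 0.01, so reads were not recovered and no count model was fitted. Single values per library were compared by two-sided exact permutation of 3 against 3 libraries (smallest p 0.1). Tables were handled in Python 3.11.15, NumPy 2.4.6 and pandas 2.3.3, and the fit was tested on simulated data. The p-values measure the spread between these libraries only.

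Members, gene lists and tests were chosen with earlier results of these data known. Named were sites, loci and miRNAs past the threshold, sites in all 3 libraries of 1 group and none of the other (12 each way at most, by mean RPM), known pairs in at least 2 libraries of a group, pairs supported in at least 2 libraries of a group, genes of the lists with at least 1 RPM in a group mean, miRNAs gained or lost, and AGO1, AGO2, DCL1 and SE, with the lesser of these given in counts. Gene symbols matched 1166 of 1180 loci. Target windows were searched without gaps in RefSeq TAIR10.1 transcripts for the deposited score, and printed only where 1 window of the locus had it. In the RefSeq transcripts these windows lay between 1 and 302 bases beyond the deposited position, except that of HSP90.1. Alternatives were another pseudocount, no filter, the 6 libraries alone, rescaling, the replicate number as a block, an Allen score limit, a limit of 1 RPM and leaving out each library.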

Additional observations from a re-analysis of the deposited data

How the results depend on the processing

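The test called 16 sites, 15 loci and 8 miRNAs. Site calls numbered 21 with a pseudocount of 0.1 RPM (8 lower, 13 higher), 15 without the filter, 9 with the 6 libraries alone (2 lower, 7 higher), 9 after rescaling to equal summed RPM (1 lower, 8 higher), 11 when mitochondrial sites were left out of that rescaling (chosen after seeing the data), and 12 among the 83 sites with an Allen score of at most 4 (9 lower, 3 higher). The median change of tested sites was −0.53 with the smaller pseudocount and −0.09 after rescaling. Locus calls stayed between 10 and 16 in the same settings, but turned from 5 lower and 10 higher to 8 lower and 3 higher among the 84 loci with an Allen score of at most 4. miRNA calls ran from 7 to 9, apart from 5 (all lower) with that limit. Without 1 library, site calls ran from 7 (without Control replicate 2 or HS replicate 3) to 15, with 10 without Recovery replicate 3, locus calls from 12 to 15, and miRNA calls from 5 (without Control replicate 2) to 13 (without HS replicate 2).

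Same-numbered Control and HS libraries did not deviate together (correlations of −0.094, −0.068 and 0.0044, against −0.056 to 0.128 for other pairs). No pairing by number was seen, but with many sites at about 1 read these correlations cannot exclude it. With the replicate number as a block 14 sites, 16 loci and 8 miRNAs were called.

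Counts of gains and losses moved with the rule. Requiring all 3 libraries left 15 sites gained and 15 lost, 12 and 14 loci, and 1 and 4 miRNAs. A limit of 1 RPM left 18 and 21 sites, 15 and 19 loci, and 6 miRNAs lost. An Allen score of at most 4 left 6 and 23 sites, 6 and 20 loci, and 1 miRNA gained. Without 1 library, sites gained ran from 26 to 70 and lost from 33 to 106, loci from 21 to 64 and from 32 to 109, and miRNAs from 1 to 19 and from 5 to 23. The summed photosynthesis signal, lower in HS by 11.2 RPM, was higher by 0.219 RPM over sites with an Allen score of at most 4. The cause of these shifts was not tested. Since 47.1% to 59.0% of listed sites held about 1 read, a site that is not listed may still have been cut below detection.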
